A study of Mus musculus with 20 samples.

Results

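The genes of tetrahydrobiopterin metabolism were followed in the gastrocnemius, a calf muscle, of adult male C57BL/6 mice. The set holds 7 of the 19938 genes tested: Gch1, Gchfr, Pts, Spr, Pcbd1, Pcbd2 and Qdpr. The set was chosen by the Pcbd1 values of these same arrays in the knockout muscle, and the other 6 genes were added as its pathway. Each was read from its only probe set with a single gene symbol, so all 7 were measured. The 20 arrays fell into 4 groups of 5. NCoR1-MKO mice lack the nuclear receptor corepressor NCoR1 in muscle and were compared with CON mice, whose genotype the sources used here do not state. PGC-1alpha-mTg mice carry a muscle transgene for PGC-1alpha, a coactivator of transcription, and were compared with WT mice. The same sources state neither exact ages nor the promoters behind the deletion and the transgene.

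Tetrahydrobiopterin is a cofactor that passes electrons to the aromatic amino acid hydroxylases, to the nitric oxide synthases and to alkylglycerol monooxygenase. It is made from GTP by GTP cyclohydrolase (Gch1), pyruvoyl-tetrahydropterin synthase (Pts) and sepiapterin reductase (Spr), and the GTP cyclohydrolase feedback regulator (Gchfr) restrains the initial step. After each hydroxylation the spent cofactor is dehydrated by pterin carbinolamine dehydratase (Pcbd1, with its paralog Pcbd2) and reduced again by quinoid dihydropteridine reductase (Qdpr). The Pcbd1 protein is also known as a dimerization cofactor of homeodomain transcription factors, and in muscle the neuronal-type nitric oxide synthase is the best known user of the cofactor.

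The DNA just upstream of 3 recycling genes is shown because Pcbd1 and Qdpr fell together in the PGC-1alpha-mTg muscle while the paralog Pcbd2 rose there. The sequences are the 250 bases before the start that the RefSeq promoter table gives (GRCm38.p6), written 5′ to 3′ on the gene's strand. Capitals mark AGGTCA, the core motif bound by many nuclear receptors.
Pcbd1 (chr10:61089081-61089330, plus strand): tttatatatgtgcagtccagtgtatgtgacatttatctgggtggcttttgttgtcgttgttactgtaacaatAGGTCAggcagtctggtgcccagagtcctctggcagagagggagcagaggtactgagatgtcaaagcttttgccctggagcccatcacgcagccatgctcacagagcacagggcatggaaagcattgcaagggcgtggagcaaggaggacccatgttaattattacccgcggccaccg
Pcbd2 (chr13:55727118-55727367, plus strand): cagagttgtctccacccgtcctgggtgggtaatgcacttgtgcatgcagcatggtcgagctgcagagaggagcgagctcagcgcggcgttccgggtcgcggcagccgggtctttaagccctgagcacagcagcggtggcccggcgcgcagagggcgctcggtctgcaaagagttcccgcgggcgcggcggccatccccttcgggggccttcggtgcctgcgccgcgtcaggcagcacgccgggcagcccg
Qdpr (chr5:45450230-45450479, minus strand): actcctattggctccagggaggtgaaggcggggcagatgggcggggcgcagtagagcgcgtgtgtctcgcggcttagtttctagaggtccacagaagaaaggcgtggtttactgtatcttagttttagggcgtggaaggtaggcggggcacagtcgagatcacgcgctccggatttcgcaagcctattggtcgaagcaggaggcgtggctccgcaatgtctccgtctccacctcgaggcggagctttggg
All 7 genes had such a window. For Pcbd2 and Pts its edge does not meet the gene's outer bound in RefSeq, so that their windows may belong to another transcript start than the outermost, and what follows holds for these windows only. Both strands were searched for AGGTCA, its extended form AAGGTCA (which contains it), the E-box CAGCTG and the GC box GGGCGG. Only the Pcbd1 window held AGGTCA, once, beginning 178 bases before the start. Of 32851 RefSeq windows of this length, 14 percent held that motif, 4.08 percent AAGGTCA, 13 percent CAGCTG and 32.7 percent GGGCGG. None of the 7 windows held AAGGTCA or CAGCTG. The GC box GGGCGG occurred in the windows of Gch1, Gchfr, Pts, Spr and Qdpr and in neither Pcbd1 nor Pcbd2. The G and C content was 51.6 percent for Pcbd1, close to the median of 52.4 percent over all windows, while the other 6 members lay from 59.2 percent (Gch1) to 70.8 percent (Pcbd2). A match describes the letters of the window and is not evidence of binding.

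All values below are RMA expression values on the log2 scale, and changes are log2 fold changes ± SE from a limma fit to the 20 arrays, with n = 5 per group. Genes are said to have risen or fallen where the limma p, adjusted over all 19938 genes by the Benjamini-Hochberg method, was under 0.05. Array medians lay from 6.03 to 6.08 in CON and NCoR1-MKO and from 5.84 to 5.91 in WT and PGC-1alpha-mTg. Levels were therefore compared only within each pair of groups. The labels do not tie arrays to separate mice, and p-values therefore cover only the scatter among these samples, some of which may be technical. The transgene's own gene, Ppargc1a, was higher by 1.83 ± 0.07 in the transgenic arrays on its brightest probe set (limma adjusted p = 9.88e-15). Its other probe set was lower in the transgenic arrays, at 7.08 ± 0.23 against 8.08 ± 0.13 in WT (SD, n = 5; limma adjusted p = 1.73e-07), and the mean of both probe sets gave a change of 0.41. Ncor1 was not analysed here. The 6 fibre markers (Acta1, Ckm, Myh1, Myh4, Mylpf and Tnnt3) averaged 13.28 to 13.30 on the CON arrays and 13.32 to 13.37 on the NCoR1-MKO arrays. The averages were 12.82 to 12.89 on the WT arrays and 12.84 to 12.87 on the PGC-1alpha-mTg arrays. In the knockout all 6 had positive changes and 1, Mylpf, was called, where 2.63 percent of all genes were called. The Mylpf call was lost in 7 of 20 fits without 1 array (limma adjusted p up to 0.0921) and in 3 of 10 other settings (up to 0.126). In the transgenic mice 1 of the 6 markers rose and 1 fell, where 28 percent of all genes were called. The part of these markers in the changes given here was not tested.

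Pcbd1 was higher in the muscle without NCoR1 and lower in the muscle with extra PGC-1alpha. The CON arrays read 6.68, 6.28, 6.23, 6.33 and 6.49, and the NCoR1-MKO arrays 7.31, 7.28, 7.50, 7.53 and 8.00. Every knockout array lay above every control array, with a gap of 0.60 between the groups, and the highest knockout value came from replicate 5. The means were 6.40 ± 0.18 (SD, n = 5) and 7.52 ± 0.29, a difference of 1.12 ± 0.11 (SE) or 2.17-fold. Among all genes only 1, Scd2, had a larger positive difference in the knockout. These knockout values are the ones that singled Pcbd1 out, so they are given as a description without a test. Without replicate 5 of NCoR1-MKO the difference was 1.00.

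In the transgenic cohort the WT arrays read 6.21, 5.78, 5.91, 5.82 and 5.83 for Pcbd1, and the PGC-1alpha-mTg arrays 5.22, 5.41, 5.44, 5.52 and 5.47. No transgenic array reached the lowest WT array, and the gap between the groups was 0.26. The mean fell from 5.91 ± 0.18 to 5.41 ± 0.11 (SD, n = 5), a change of -0.50 ± 0.11 (limma adjusted p = 0.00157), or 1.41-fold lower. The fall held whichever array was left out, at adjusted p up to 0.00691. An exact two-sided permutation test over the 10 arrays gave p = 0.00794, the smallest that 5 against 5 can give. The effects in the 2 models differed by -1.62 ± 0.16 (transgenic minus knockout). No p is given for that difference because it contains the knockout values. Across all genes, 261 rose in NCoR1-MKO by the same limma rule, and 45 of them (0.226 percent of all genes) also fell in PGC-1alpha-mTg. In PGC-1alpha-mTg 16.1 percent of all genes fell. Since the knockout values chose Pcbd1, the share of 0.226 percent does not measure how rare its pattern is.

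**Figure D1:**
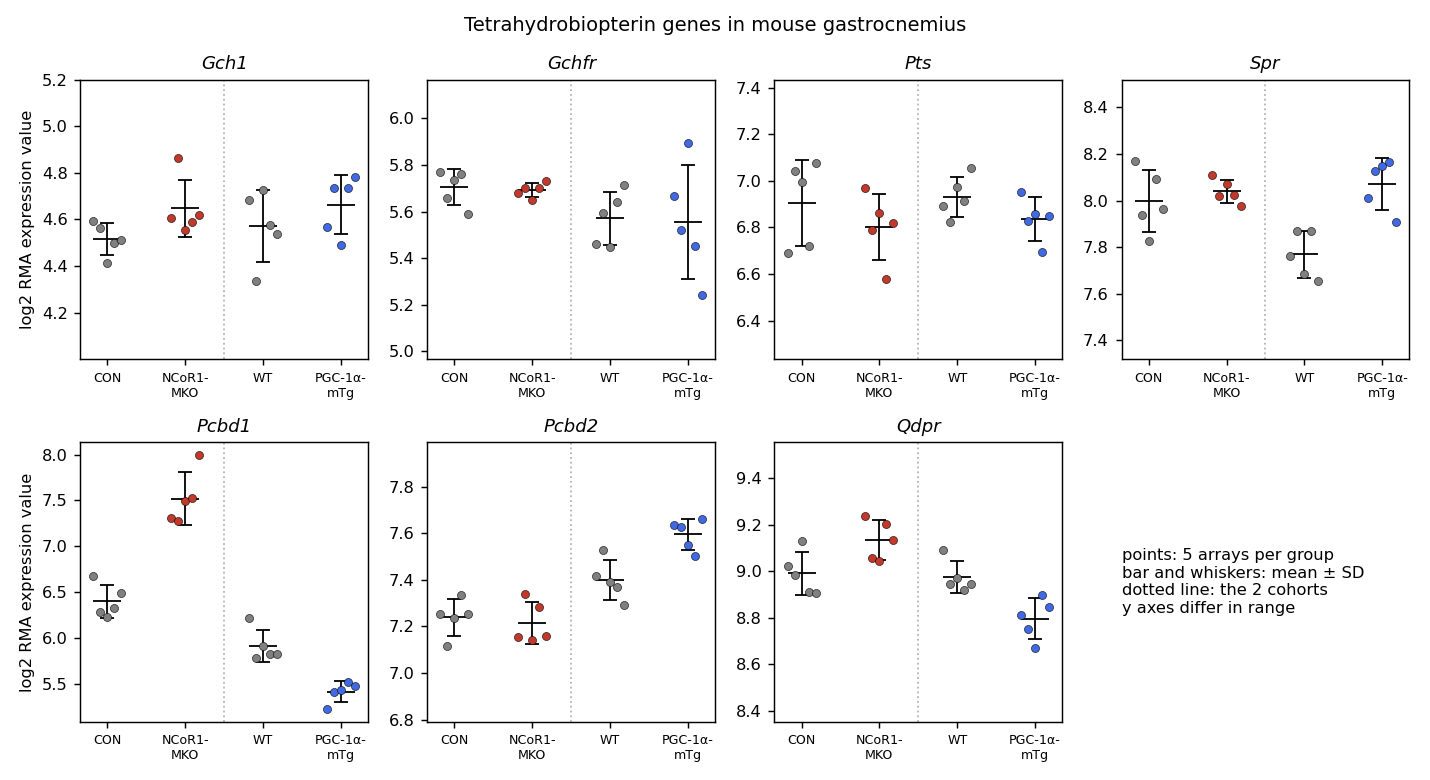
Log2 RMA expression values (y axis, a different range in each panel) of the 7 tetrahydrobiopterin genes on each of the 5 arrays of the 4 groups (x axis), with the mean ± SD; the dotted line separates the cohorts. Pcbd1 is higher on all 5 NCoR1-MKO arrays (7.28 to 8.00) than on any CON array and lower on all 5 PGC-1alpha-mTg arrays (5.22 to 5.52) than on any WT array, while Gch1, Gchfr and Pts overlap in each comparison.

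The other dehydratase gene, Pcbd2, did not share this pattern. In the knockout it changed by -0.02 ± 0.05 (limma adjusted p = 0.955; 95% confidence interval -0.13 to 0.09), with CON arrays from 7.12 to 7.34 and NCoR1-MKO arrays from 7.14 to 7.34. In the transgenic muscle it rose by 0.20 ± 0.05 (limma adjusted p = 0.00709), a 1.15-fold increase, while Pcbd1 fell. The WT arrays read 7.42, 7.53, 7.39, 7.37 and 7.29 and the PGC-1alpha-mTg arrays 7.63, 7.63, 7.55, 7.50 and 7.66. All 5 transgenic arrays exceeded the WT mean, but WT replicate 2 lay above transgenic replicate 4, so the groups overlapped slightly. The 2 effects on Pcbd2 differed by 0.22 ± 0.07, which narrowly missed the threshold (limma adjusted p = 0.0523). That difference passed in 2 of 9 other settings (adjusted p from 0.0150 to 0.0948) and without CON 2, NCoR1-MKO 2, NCoR1-MKO 4, WT 2 or PGC-1alpha-mTg 4.

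Qdpr, the reductase that completes recycling, leaned the way of Pcbd1 at a much smaller size. The CON arrays read 9.02, 8.98, 9.13, 8.91 and 8.90 and the NCoR1-MKO arrays 9.24, 9.06, 9.04, 9.20 and 9.14. All 5 knockout arrays exceeded the CON mean, yet the groups overlapped and the change of 0.15 ± 0.05 did not pass (limma adjusted p = 0.217). In the transgenic cohort the WT arrays read 9.09, 8.95, 8.97, 8.92 and 8.95 and the PGC-1alpha-mTg arrays 8.81, 8.75, 8.67, 8.90 and 8.85. The groups did not overlap, with a gap of only 0.02. Qdpr fell by 0.18 on the log2 scale ± 0.05 (limma adjusted p = 0.0165), or 1.13-fold. This call was lost without WT 1 or without PGC-1alpha-mTg 3, where the change was smaller and the adjusted p reached 0.0595. The effects of the 2 models on Qdpr differed by -0.32 ± 0.08 (limma adjusted p = 0.00510), and that call held whichever array was left out (adjusted p up to 0.0123). Of all genes 15.2 percent had a called difference between the effects, 6.66 percent higher and 8.5 percent lower in the transgenic mice.

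Of the 4 synthesis genes Spr was the only one called, and in the transgenic comparison. Spr encodes the enzyme of the final reductions to tetrahydrobiopterin. The WT arrays read 7.76, 7.87, 7.69, 7.87 and 7.66 and the PGC-1alpha-mTg arrays 8.01, 8.13, 8.15, 8.16 and 7.91. Every transgenic array lay above every WT array, by a gap of 0.04. Spr rose by 0.30 ± 0.06 (limma adjusted p = 0.000774), or 1.23-fold, and kept the call whichever array was left out (adjusted p up to 0.00337). In the knockout it changed by 0.04 ± 0.06 (limma adjusted p = 0.921; 95% confidence interval -0.09 to 0.17), with means of 8.00 ± 0.13 in CON and 8.04 ± 0.05 in NCoR1-MKO (SD, n = 5). The difference of 0.26 ± 0.09 between the effects had a limma adjusted p of 0.0525. It passed in 5 of 9 other settings (adjusted p from 0.0168 to 0.0705) and without CON 3, WT 2, WT 4, PGC-1alpha-mTg 1 or PGC-1alpha-mTg 5.

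Gch1, which encodes the enzyme of the initial and usually rate-limiting step, passed in neither model. Its arrays ranged from 4.41 to 4.59 in CON, 4.56 to 4.87 in NCoR1-MKO, 4.33 to 4.73 in WT and 4.49 to 4.78 in PGC-1alpha-mTg. The changes were 0.13 ± 0.07 in the knockout (limma adjusted p = 0.549; 95% confidence interval -0.02 to 0.28) and 0.09 ± 0.07 in the transgenic mice (limma adjusted p = 0.400; -0.06 to 0.24). The knockout SD rested on replicate 2, at 4.87, while the other knockout arrays lay between 4.56 and 4.62. Its regulator Gchfr stood at -0.01 ± 0.08 and -0.02 ± 0.08 (limma adjusted p = 0.985 and 0.916), and its transgenic arrays spread from 5.24 to 5.89, wider than the WT arrays at 5.45 to 5.71. Both genes belong to the dimmest 40 percent of genes on these arrays, and a change in a dim probe set can be understated.

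Pts, which encodes the enzyme of the middle step, read 6.69 to 7.08 in CON, 6.58 to 6.97 in NCoR1-MKO, 6.83 to 7.05 in WT and 6.69 to 6.95 in PGC-1alpha-mTg. Its changes were -0.10 ± 0.08 in each model (limma adjusted p = 0.738 in the knockout and 0.414 in the transgenic mice). The 95% confidence intervals, -0.26 to 0.06 and -0.26 to 0.07, leave room for a fall of up to 0.26.

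**Figure D2:**
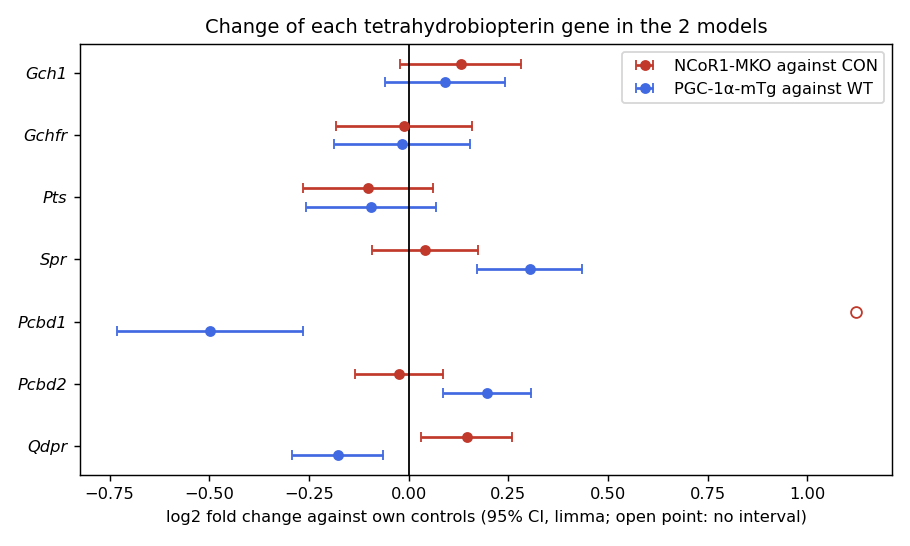
Log2 fold change (x axis) of each tetrahydrobiopterin gene (y axis) in NCoR1-MKO against CON and in PGC-1alpha-mTg against WT; points are limma estimates from 5 arrays per group and bars are 95% confidence intervals, with none for Pcbd1 in the knockout (open point), whose values chose the set. Pcbd1 stands at 1.12 and -0.50, Qdpr at 0.15 and -0.18, the intervals of Spr and Pcbd2 lie above 0 in the transgenic mice and include 0 in the knockout, and the intervals of Gch1, Gchfr and Pts include 0 in both models.

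Counted over the pathway, the transgenic muscle had 2 members higher (Spr and Pcbd2) and 2 lower (Pcbd1 and Qdpr) of 7, where 28 percent of all genes were called, 11.9 percent higher and 16.1 percent lower. Of the members 3 (Spr, Pcbd1 and Qdpr) had groups that did not overlap, against 19.9 percent of all genes (8.72 percent higher and 11.2 percent lower). The median change of the 7 was -0.02 beside 0.02 over all genes. In the knockout 2.63 percent of all genes were called by limma (1.31 percent higher and 1.32 percent lower), and none of the 6 members other than Pcbd1. At an unadjusted limma p under 0.05 there was 1 of those 6, Qdpr, and by the exact permutation test, unadjusted, 2, Gch1 and Qdpr (p = 0.0397 each). Over all genes 11.8 percent passed either unadjusted threshold, so 1 of 6 by limma is near the background. None of these 6 had knockout and CON arrays that did not overlap, beside 4.17 percent of all genes (2.21 percent higher and 1.96 percent lower). The median change of the 6 in the knockout was 0.01 beside 0.00 over all genes.

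The genes that use the cofactor were measured for 8 of 9 listed, the hydroxylases, nitric oxide synthases and alkylglycerol monooxygenase with the hydroxylase co-chaperone Dnajc12. In PGC-1alpha-mTg 2 rose and 1 fell, at a median of 0.04, where 28 percent of all genes were called. The fall was that of Nos1, the neuronal-type nitric oxide synthase of muscle fibres. Its WT arrays read 8.71, 8.74, 8.44, 8.40 and 8.63 and its PGC-1alpha-mTg arrays 7.91, 7.74, 7.72, 7.73 and 7.84. The groups were 0.49 apart, and Nos1 fell by 0.80 on the log2 scale ± 0.08 (limma adjusted p = 5.12e-08), or 1.74-fold, a larger change than that of any member in these mice. In the knockout Nos1 stood at -0.25 ± 0.08 (limma adjusted p = 0.109). All 5 knockout arrays lay below all CON arrays, by a gap of only 0.004. Over all genes 1.96 percent had knockout arrays wholly below the CON arrays. The 2 effects on Nos1 differed by -0.54 ± 0.11 (limma adjusted p = 0.00145).

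The inducible and the endothelial synthase moved opposite to Nos1 in the transgenic mice. Nos2 rose by 0.33 ± 0.07 (limma adjusted p = 0.00135), with WT arrays at 6.03, 5.81, 5.66, 5.86 and 5.80 and PGC-1alpha-mTg arrays at 6.30, 6.21, 6.16, 6.02 and 6.14. The transgenic arrays were the higher group, with an overlap of 1 array on each side. Nos3 rose by 0.26 ± 0.07 (limma adjusted p = 0.00555), with WT arrays at 7.18, 7.17, 7.17, 7.38 and 7.15 and PGC-1alpha-mTg arrays at 7.42, 7.47, 7.54, 7.52 and 7.39. These groups did not overlap, though WT replicate 4 came within 0.01 of the lowest transgenic array. In bulk tissue more cells of a type and more RNA per cell cannot be told apart. Of 8 endothelial markers 5 rose in the same mice, at a median of 0.34, where 28 percent of all genes were called, 11.9 percent higher. The mean of these markers per array was 8.26 to 8.51 in WT and 8.60 to 8.75 in PGC-1alpha-mTg. Their part in the Nos3 change was not tested. In the knockout all 8 endothelial markers had positive changes, at a median of 0.20, with 1 called, where 2.63 percent of all genes were called. The mean of these markers per array was 8.58 to 8.83 in CON and 8.78 to 9.17 in NCoR1-MKO. Their part in the knockout values given here was not tested either. Of 7 macrophage markers none was called by limma in either model, also at an unadjusted p under 0.05, and their array means were 6.86 to 7.17 in WT and 6.93 to 7.25 in PGC-1alpha-mTg.

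In the knockout none of these 8 genes was called by limma, and 2 had an unadjusted limma p under 0.05, where 11.8 percent of all genes did. They were Nos1 and Tph1, a tryptophan hydroxylase at -0.35 ± 0.12 (limma adjusted p = 0.128). Tph1 stood at -0.27 ± 0.12 in the transgenic mice (limma adjusted p = 0.0893). The tyrosine hydroxylase gene Th stood at -0.03 ± 0.06 and 0.11 ± 0.06, and Agmo, the ether lipid monooxygenase, at -0.00 ± 0.12 and 0.07 ± 0.12 in the knockout and the transgenic mice. None of these changes passed (limma adjusted p from 0.222 to 0.996). With array weights Tph1 passed in the knockout (adjusted p = 0.0375) and Th in the transgenic mice (0.0202), where Th also passed without PGC-1alpha-mTg 5 (0.0114). Tph1 passed in the transgenic mice when only their 10 arrays were fitted (0.0212).

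Of the alternative reductases of pterin intermediates, 3 of 5 listed genes were measured. Akr1c14, an aldo-keto reductase, rose by 0.63 ± 0.12 in PGC-1alpha-mTg (limma adjusted p = 0.000205) and stood at -0.17 ± 0.12 in the knockout (limma adjusted p = 0.688). Its WT arrays read 5.63, 5.54, 5.35, 5.39 and 5.01 and its PGC-1alpha-mTg arrays 6.10, 5.80, 5.79, 5.96 and 6.41, so the groups did not overlap. The carbonyl reductase genes Cbr1 (0.11 ± 0.05) and Cbr3 (-0.04 ± 0.06) did not pass in the transgenic mice (limma adjusted p = 0.0980 and 0.663). Cbr1 passed after quantile normalization across the 20 arrays (0.15, limma adjusted p = 0.00540), with array weights (0.0495) and without PGC-1alpha-mTg 2 (0.0161). None of the 3 was called by limma in the knockout, also at an unadjusted p under 0.05.

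**Figure D3:**
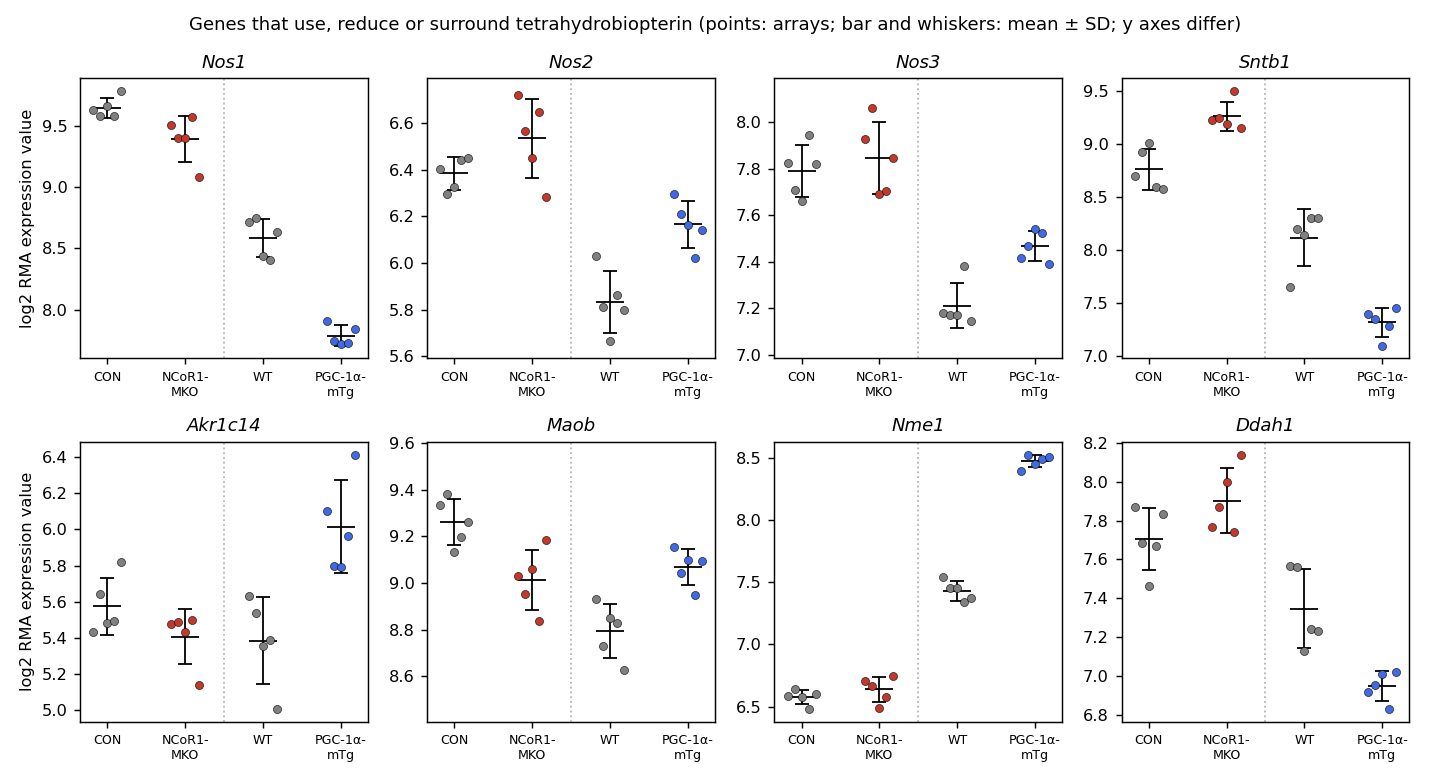
Log2 RMA expression values (y axis, a different range in each panel) on each of the 5 arrays per group (x axis) of the nitric oxide synthases Nos1, Nos2 and Nos3, the syntrophin Sntb1, the reductase Akr1c14, the amine oxidase Maob, the nucleoside diphosphate kinase Nme1 and Ddah1, with the mean ± SD; the dotted line separates the cohorts. Nos1, Sntb1 and Ddah1 are lower on every PGC-1alpha-mTg array than on any WT array, Nos3, Akr1c14, Maob and Nme1 are higher on every one, and Sntb1 is also higher on every NCoR1-MKO array than on any CON array.

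Around nitric oxide synthase, 17 of 19 listed genes of its scaffold, signalling and arginine supply were measured. In PGC-1alpha-mTg 1 rose and 3 fell, and in NCoR1-MKO 1 rose and 1 fell, with median changes of -0.01 and 0.04. Over all genes 28 percent were called in PGC-1alpha-mTg and 2.63 percent in NCoR1-MKO. For Sntb1, which encodes a syntrophin of the dystrophin complex, the CON arrays read 8.70, 8.92, 9.01, 8.60 and 8.57 and the NCoR1-MKO arrays 9.23, 9.24, 9.19, 9.50 and 9.15. The WT arrays read 7.65, 8.19, 8.14, 8.30 and 8.30 and the PGC-1alpha-mTg arrays 7.39, 7.35, 7.10, 7.28 and 7.46. Sntb1 rose by 0.50 ± 0.11 in the knockout (limma adjusted p = 0.0112) and fell by 0.80 on the log2 scale ± 0.11 in the transgenic mice (limma adjusted p = 4.94e-06), and the groups overlapped in neither comparison. Dmd, the gene of dystrophin itself, fell in each model, with changes of -0.52 ± 0.05 in the knockout (limma adjusted p = 2.66e-06) and -0.38 ± 0.05 in the transgenic mice (limma adjusted p = 8.95e-06). Ddah1, whose enzyme clears an inhibitor of the synthases, fell in the transgenic mice by 0.40 on the log2 scale ± 0.09 (limma adjusted p = 0.00164) and stood at 0.20 ± 0.09 in the knockout (limma adjusted p = 0.384). Its 2 effects differed by -0.60 ± 0.13 (limma adjusted p = 0.00210). Gucy1a1, a subunit of the nitric oxide receptor guanylate cyclase, rose by 0.34 ± 0.07 in the transgenic mice (limma adjusted p = 0.000608). Other cell type markers moved in the same mice. Of 6 smooth muscle and pericyte markers 2 rose, at a median of 0.15, and their mean per array was 8.16 to 8.32 in WT and 8.35 to 8.48 in PGC-1alpha-mTg. Of 6 mast cell markers 3 rose (array means 5.48 to 5.79 and 5.77 to 6.07), of 6 fibroblast markers 2 fell (9.17 to 9.47 and 9.02 to 9.22), and of 4 nerve and Schwann cell markers 2 fell (7.84 to 8.01 and 7.65 to 7.70). Their part in the transgenic changes was not tested. In the knockout no marker of these 4 cell types was called by limma. At an unadjusted limma p under 0.05 there was 1 of each type, where 11.8 percent of all genes passed.

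The substrate side of the pathway was followed through 9 of 10 listed purine nucleotide genes, since GTP is the starting material. In PGC-1alpha-mTg 4 rose (Nme1, Nme2, Guk1 and Impdh1) and 2 fell (Ampd1 and Hprt), at a median of 0.18, where 28 percent of all genes were called. The Guk1 call was lost in 6 of 20 fits without 1 array (limma adjusted p up to 0.107) and in 3 of 10 other settings. The Impdh1 call was lost without WT 5 (0.0517) and with only the 10 arrays of the comparison (0.0538), and the Hprt call without PGC-1alpha-mTg 2 (0.0562). Nme1, a nucleoside diphosphate kinase gene, rose from 7.43 ± 0.08 to 8.48 ± 0.05 (SD, n = 5), a change of 1.05 ± 0.05 (limma adjusted p = 7.19e-13). Its relative Nme2 rose by 0.39 ± 0.04 (limma adjusted p = 3.52e-08), and the AMP deaminase gene Ampd1 fell by 0.38 on the log2 scale ± 0.04 (limma adjusted p = 2.17e-07). In the knockout none of the 9 was called by limma, also at an unadjusted p under 0.05. Nme1 and Nme2 have similar sequences, and how far their probe sets share signal was not tested.

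In phenylalanine, tyrosine and amine catabolism, 8 of 9 listed genes were measured, with 1 called higher and 1 lower in PGC-1alpha-mTg and 1 lower in NCoR1-MKO. The shares called over all genes were 28 percent in PGC-1alpha-mTg and 2.63 percent in NCoR1-MKO. Maob, a monoamine oxidase gene, had opposite changes, 0.27 ± 0.07 in the transgenic mice (limma adjusted p = 0.00269) and -0.25 ± 0.07 in the knockout (limma adjusted p = 0.0438). The knockout call was lost in 13 of 20 fits without 1 array: CON 1, 2, 4 or 5, NCoR1-MKO 1, 2, 3 or 4, WT 2, 3 or 4, or PGC-1alpha-mTg 2 or 3 (adjusted p up to 0.131). It was also lost with the replicate block (0.0694), with arrays centred on their medians (0.0610), with only the 10 arrays of the comparison (0.0849) and without moderation (0.0692). Its paralog Maoa fell by 0.50 on the log2 scale ± 0.08 in the transgenic mice (limma adjusted p = 5.92e-05). In the knockout Maoa stood at -0.27 ± 0.08, a change of similar size to that of Maob, and did not pass (limma adjusted p = 0.0960). With the replicate block it passed (0.0468). In the folate cycle, another pterin pathway, 14 of 15 genes were measured, with 2 higher and 2 lower in PGC-1alpha-mTg and 1 lower in NCoR1-MKO. The same shares of all genes, 28 and 2.63 percent, stand beside these counts. Shmt2, the mitochondrial serine hydroxymethyltransferase gene, rose by 0.33 ± 0.05 (limma adjusted p = 2.95e-05). The methionine synthase gene Mtr fell by 0.32 on the log2 scale ± 0.07 in the transgenic mice (limma adjusted p = 0.00101) and by 0.28 ± 0.07 in the knockout (limma adjusted p = 0.0300). Its knockout call was lost without any of NCoR1-MKO 2, 3, 4 and 5 and of CON 2, 3 and 5, where the adjusted p reached 0.0931, and also with the replicate block (0.0816) and without moderation (0.0549).

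The genes whose pattern was most like that of Pcbd1 were found by Pearson's r over the 20 arrays, each value taken relative to the mean of its cohort. They were Msrb1, a methionine sulfoxide reductase gene (r = 0.91), the lipid droplet gene Plin3 (0.89), the desaturase gene Scd2 (0.88), Frzb, which encodes a secreted Wnt antagonist (0.87), and the fast myosin light chain gene Mylpf (0.86). The most opposite were Cd28 (-0.92), the ubiquitin ligase gene Rnf128 (-0.87) and the paraoxonase gene Pon3 (-0.86). Arrays of a group share their genotype, so most of this likeness lies between groups: relative to group means the r of the first 5 fell to between 0.26 and 0.59. Msrb1 changed by 0.50 ± 0.07 in the knockout and -0.30 ± 0.07 in the transgenic mice, and Frzb by 0.57 ± 0.09 and -0.09 ± 0.09. Among the members Qdpr was the most like Pcbd1, at r = 0.64 (0.15 relative to group means), and Pcbd2 the least, at -0.38. These values are descriptions of genes picked for their likeness, and no test was made. Of the 5 most alike genes, 3 were kept after quantile normalization, 3 to 5 when 1 array was left out (fewest without CON 3 or NCoR1-MKO 5), and 0 when ranked relative to group means.

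**Figure D4:**
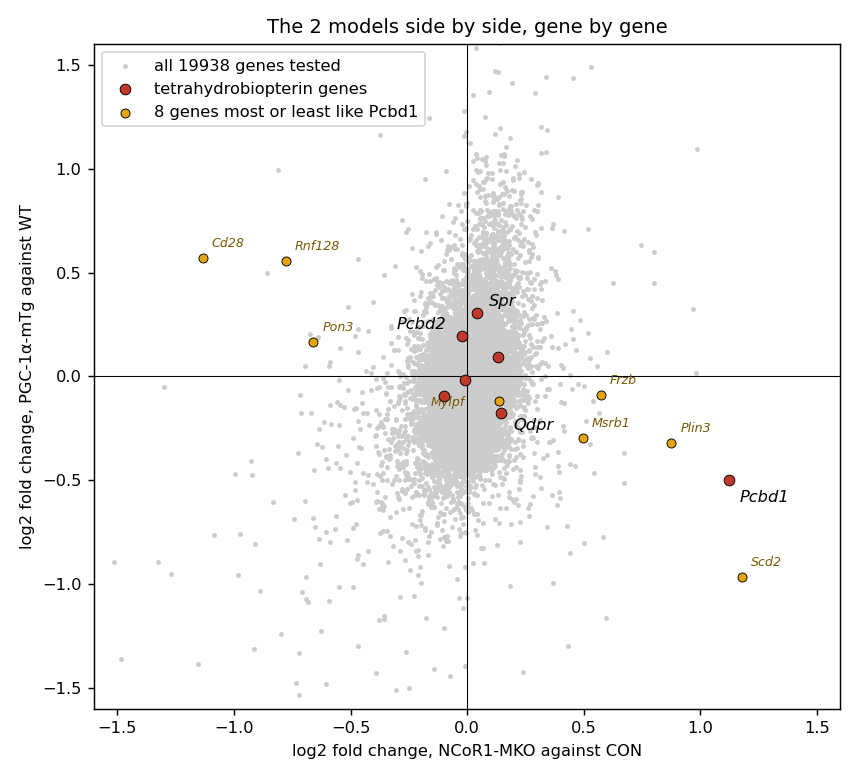
Log2 fold change of each gene in NCoR1-MKO against CON (x axis) and in PGC-1alpha-mTg against WT (y axis), with all 19938 genes tested in grey, the 7 tetrahydrobiopterin genes in red and the 8 genes most or least like Pcbd1 in yellow; 18 genes lie outside the axes at 1.6. Pcbd1 sits at 1.12 and -0.50 with Scd2 and Plin3 at the lower right, where genes are higher in the knockout and lower in the transgenic mice, and the other 6 members lie between -0.18 and 0.30 on both axes.

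The genes beside Pcbd1 on chromosome 10 showed no changes of its size. The 3 nearest measured genes on each side in the RefSeq order were Slc29a3, Unc5b and Pldi before it and Sgpl1, Tbata and Adamts14 after it. In the knockout their changes lay from -0.14 (Pldi) to 0.04 (Sgpl1), and none was called by limma, also at an unadjusted p under 0.05. In the transgenic mice they lay from -0.14 (Sgpl1) to 0.23 (Unc5b). Of the 6, 1 was called, beside 28 percent of all genes, namely Slc29a3 at -0.14 ± 0.05 (limma adjusted p = 0.0495). That call was lost in 14 of 20 fits without 1 array, namely CON 1, 2, 4 or 5, NCoR1-MKO 1, 2 or 4, WT 1, 2, 3 or 5, or PGC-1alpha-mTg 1, 3 or 4 (adjusted p up to 0.146). Unc5b had a limma adjusted p of 0.0503 and passed in 7 of 20 such fits, without CON 3 or 4, NCoR1-MKO 1 or 5, WT 1, or PGC-1alpha-mTg 2 or 5.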

How the data were processed

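Gene expression was measured on Affymetrix whole-transcript mouse gene arrays from 250 ng of total RNA, 20 arrays in 4 groups of 5. The authors deposited log2 expression values for 35556 probe sets; RMA and Partek are named in the submitters' processing notes, and neither version is given there. The 2 cohorts differed in array median and may have been normalized apart. Probe sets with 1 symbol numbered 21789, with several 1621 and with none 12146; the brightest single-symbol probe set stood for each of 19938 genes. Limma 3.58.1 in R 4.3.3 fitted 4 group means to the 20 arrays, two-sided, with Benjamini-Hochberg adjustment over all genes and calls at 0.05; the same script was tested on simulated data. No 2 arrays held identical values, and arrays of a group correlated at 0.987 to 0.997. The members, gene lists and tests were chosen with earlier results of these data known. Named genes were the members, called genes of the pathway lists (the clearest of them), further cofactor-dependent and salvage genes, the genes most and least like Pcbd1, its neighbours and Ppargc1a. Alternatives covered normalization, dim genes, probe sets, arrays fitted, moderation, array weights, a replicate block and leaving out each array; exact permutation tests were added after the data were seen. Promoter windows came from RefSeq (GRCm38.p6).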

Additional observations from a re-analysis of the deposited data

Results flagged for a closer look

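Single arrays stood far from the other 4 of their group in 5 of 112 groups examined, a share that chance alone would give at about 1 in 20 groups. Among the members this was Gch1 on NCoR1-MKO replicate 2, at 4.87 with the next array at 4.62. The others were Nos3 on WT replicate 4 (7.38), Akr1c14 on NCoR1-MKO replicate 5 (5.14) and Sntb1 on NCoR1-MKO replicate 4 (9.50) and on WT replicate 1 (7.65).

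The effects of the 2 models differed for 2 members, given as the transgenic effect minus the knockout effect on the log2 scale. For Pcbd1 the difference was -1.62, which was not tested because the knockout values chose the gene. For Qdpr it was -0.32 (limma adjusted p = 0.00510). Among the related genes the difference passed in limma for Sntb1 (-1.30), Ddah1 (-0.60), Nos1 (-0.54), Mtrr (-0.39) and Ampd1 (-0.32), which had the lower effect in the transgenic mice. It also passed for Nme1 (0.98), the arginine transporter gene Slc7a2 (0.85), Akr1c14 (0.80), Maob (0.52) and Nme2 (0.35), which had the higher effect there. The adjusted p of these 10 lay between 3.50e-09 (Nme1) and 0.00966 (Mtrr). The lists searched held 8 measured cofactor users, 3 reductases, 17 genes around nitric oxide synthase, 8 of catabolism, 14 of folate and 9 of purines. Over all genes 15.2 percent had a called difference, 6.66 percent higher and 8.5 percent lower in the transgenic mice. Neither effect of Slc7a2 was called alone, and its groups overlapped in both comparisons. It stood at -0.51 ± 0.14 in the knockout (limma adjusted p = 0.0583) and 0.34 ± 0.14 in the transgenic mice (limma adjusted p = 0.0870).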

How the results depend on the processing

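No result changed direction past its threshold. Of 197 member values under planned settings other than leaving out an array, 190 stayed the same and 7 gained a call (the effect differences of Spr and Pcbd2). With 1 array left out, 408 of 420 stayed the same, 2 lost their call (Qdpr in the transgenic mice) and 10 gained one. The untested Pcbd1 values, in the knockout (10 settings, 20 fits without 1 array) and for the effect difference (9 and 20), are included. They have no call and counted as the same where they moved by less than 1 within-group SD. The members called lower in PGC-1alpha-mTg numbered 1 to 2. Over the other named genes 1191 of 1232 values kept their call, and 2503 of 2580 with 1 array left out. The genes called higher in NCoR1-MKO over all genes numbered 157 when only its 10 arrays were fitted, 154 with the replicate block, and 169 to 312 with 1 array left out. In the pathway lists, NCoR1-MKO had 1 lower gene without moderation, and 2 higher and 5 lower genes with array weights. With 1 array left out those lists had 1 to 2 higher and 1 to 4 lower. Of the 5 genes most like Pcbd1, 3 were shared after quantile normalization, 0 after centring on group means and 3 to 5 with 1 array left out. Same-numbered replicates correlated at -0.13 to 0.04 (knockout cohort) and -0.23 to 0.20 (transgenic cohort). The labels do not say whether the numbers pair the samples, and such correlations cannot settle it. The replicate block changed no call of a member except the effect difference of Spr (0.26, limma adjusted p = 0.0349). Among the other named genes, Slc7a2 gained calls with it in NCoR1-MKO and PGC-1alpha-mTg (limma adjusted p = 0.0167 and 0.0225), while Maob and Mtr lost theirs in NCoR1-MKO. Gch1 and Gchfr had no value once the dimmest 40 percent of genes were left out. The 5 arrays per group limit the precision.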
